A study of Homo sapiens with 6 samples.

Results

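The ERBB receptors, their ligands and MET were followed through every probe of the deposited intensity table whose gene symbol was EGFR, ERBB2, ERBB3, NRG1, AREG, EREG, HBEGF, TGFA or MET. These 9 genes, of 31333 gene symbols in the table, had 21 of its 47230 probes. The arrays, Illumina BeadChips, held RNA of PANC-1, an established human pancreatic cancer cell line, transfected either with a control small interfering RNA (siControl, 3 arrays) or with a small interfering RNA to NR4A1, an orphan nuclear receptor (siNR4A1, 3 arrays; the sample titles spell it siTR4A1). No other treatment, time point or genotype is labelled, and the labels do not say whether the replicates were separate cultures. The p-values therefore reflect the spread of these 6 samples alone, part or all of which may be technical. PANC-1 stands for a single tumour.

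The ERBB family consists of receptor tyrosine kinases that act in pairs. EGFR binds AREG, EREG, HBEGF and TGFA, which are made as membrane proteins and cut free by ADAM proteases. ERBB3 binds NRG1 but has little kinase activity of its own, ERBB2 has no known ligand, and the pair of ERBB2 and ERBB3 is the usual carrier of an NRG1 signal in epithelial cells. MET, the receptor for hepatocyte growth factor, is a separate receptor kinase that feeds the same RAS-ERK and PI3K pathways. In pancreatic cancer these receptors are studied as growth and survival inputs.

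Between 18231 and 20407 probes were detected per array, that is, lay above the 95% point of that array's background, and the mean signal was lowest on siControl replicate 2 (332) and highest on siControl replicate 3 (623). Probes detected on at least 3 arrays were tested. The targeted gene could not be checked, since all 3 probes of NR4A1 were below the detection threshold on all 6 arrays (exact two-sided permutation p from 0.3 to 1). Of 5 markers chosen for this carcinoma line, KRT8, KRT18 and VIM were detected on all 6 arrays, KRT19 on 5, and KRT7 was undetected. At most, the signal was 211 times the threshold for VIM, 5.78 for KRT8, 2.36 for KRT18, 1.24 for KRT19 and 0.839 for KRT7. Of 11 markers of other cell types, PTPRC, CD3E, PECAM1, CDH5, DCN, INS and PRSS1 did not reach the test. CD14 (0.44) and HBA1 (0.40) were higher and ALB (-0.32) lower in siNR4A1 on the log2 scale. With 1 probe per gene, adjusted over all genes, these 3 passed (limma, adjusted p = 0.0115, 0.0416 and 0.0465). Adjusted over all probes, HBA1 and ALB did not pass. HBA1 was detected on 2 siControl and 3 siNR4A1 arrays. COL1A1, detected on all 6 arrays, differed by 0.17 without passing. The part of these markers in the results below was not tested.

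Among the members, NRG1 fell after siNR4A1 and ERBB3 rose slightly at the edge of the threshold, while EGFR, ERBB2 and MET showed no change that the test could call. HBEGF was higher in siNR4A1 on every array without passing. AREG, EREG and TGFA were at background, so PANC-1 cells gave no usable reading for these EGFR ligands. Of the 21 probes, 7 were tested, standing for 6 of the 9 genes; 1 rose, 1 fell and 5 did not pass (limma, Benjamini-Hochberg adjusted p under 0.05 over all probes tested). Over all 19066 probes tested, 15.6% were called, 7.98% higher and 7.63% lower in siNR4A1. The median absolute log2 difference was 0.10 over the 7 member probes and 0.16 over all probes tested.

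**Figure D1:**
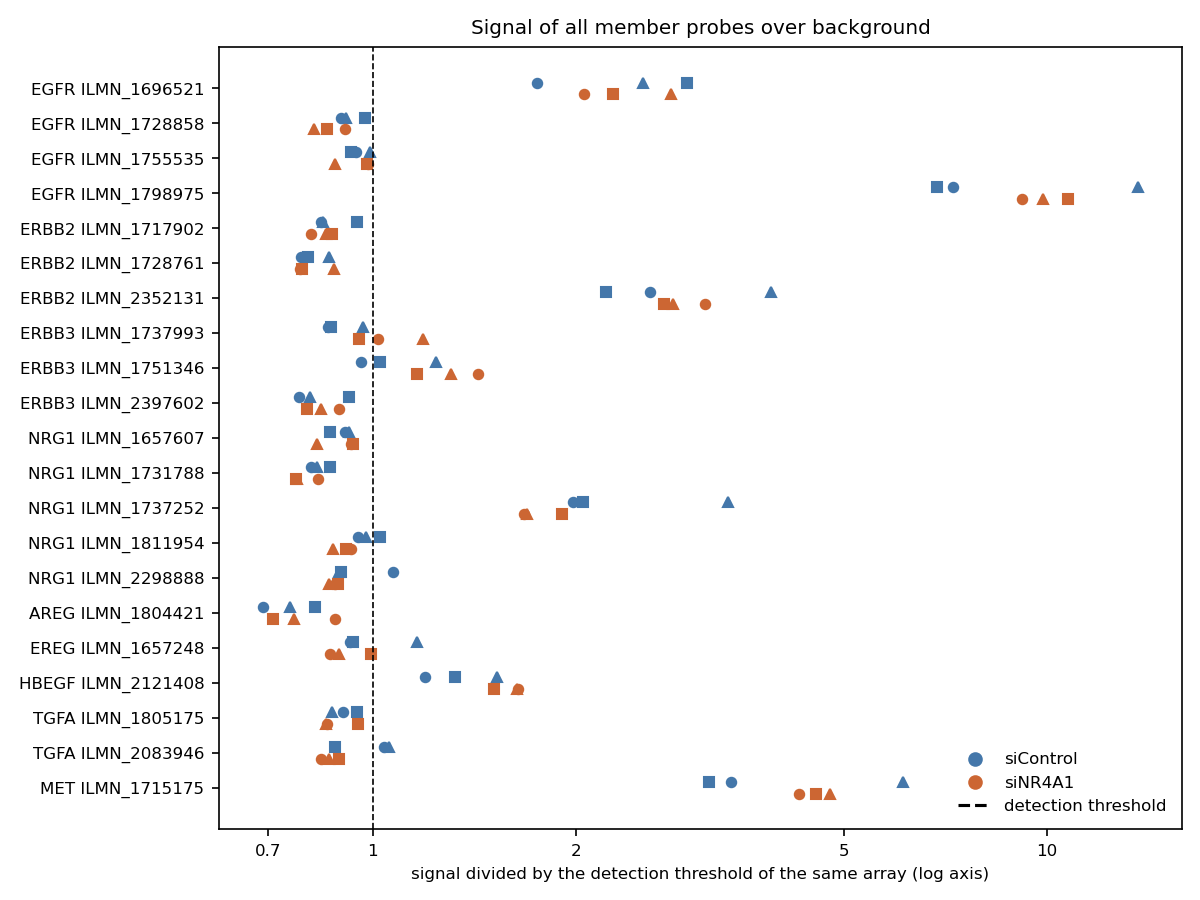
Signal of all 21 member probes on the 6 arrays, divided by the detection threshold of the same array (log axis; blue siControl, orange siNR4A1; circle, square and triangle mark replicates 1, 2 and 3). EGFR ILMN_1798975 lies furthest above the dashed threshold, and 14 probes lie at or below it on most arrays.

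EGFR had 4 probes, of which ILMN_1798975 and ILMN_1696521 were detected on all 6 arrays. The signal of ILMN_1798975 was 744, 665 and 1792 on siControl replicates 1 to 3 and 977, 1311 and 1232 on siNR4A1 replicates 1 to 3, or 6.86 to 13.6 times the detection threshold. After normalization the log2 values were 9.96, 9.91 and 10.13 in siControl and 9.88, 10.12 and 10.01 in siNR4A1, so the groups overlapped throughout and their means differed by far less than the SE of 0.12. The 95% interval of the difference ran from -0.25 to 0.25 on the log2 scale, or from 0.844 to 1.19 times the control level (limma, adjusted p = 1.00). EGFR message was measured well above background on all arrays.

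The second EGFR probe read the replicates less evenly. ILMN_1696521 had log2 values of 7.64, 8.53 and 7.65 in siControl and 7.63, 7.77 and 8.11 in siNR4A1. Its replicate 2 in siControl stood above every other array, and its within-group SD of 0.40 was larger than that of 99.6% of the tested probes. The difference was -0.10 ± 0.19 (SE, n = 3 per group; limma, adjusted p = 0.775) and became 0.20 without siControl replicate 2. That array did not stand out with the brighter EGFR probe. The other EGFR probes, ILMN_1728858 and ILMN_1755535, stayed below the threshold on all 6 arrays.

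ERBB2, the partner that the other receptors prefer, had 3 probes, and ILMN_2352131 alone was detected. Its signal was 264, 215 and 512 in siControl and 332, 329 and 348 in siNR4A1, with log2 values of 8.32, 8.04 and 8.29 against 8.28, 8.05 and 8.13. The ranges overlapped, and the difference was -0.06 ± 0.12 (SE, n = 3 per group), with a 95% interval of -0.31 to 0.19 (limma, adjusted p = 0.779).

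ERBB3, the receptor for NRG1, was close to background. Its probe ILMN_1751346 had signals of 98.6, 99.2 and 163 in siControl and 152, 142 and 163 in siNR4A1, at most 1.43 times the detection threshold, and was detected on 2 siControl and 3 siNR4A1 arrays. The normalized log2 values were 6.33, 6.43 and 6.65 in siControl and 7.03, 6.66 and 6.89 in siNR4A1, so the groups lay apart, with siControl replicate 3 and siNR4A1 replicate 2 nearly touching. ERBB3 rose by 0.39 ± 0.13 (SE, n = 3 per group) or 1.31-fold, with a 95% interval of 0.12 to 0.66 (limma, adjusted p = 0.0488).

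The ERBB3 call rests on the threshold: it held in 3 of 13 alternatives and every alternative gave a positive difference, from 0.22 to 0.59. Leaving out siControl replicate 1 (0.34) or 2 (0.39) ended it, as did leaving out siNR4A1 replicate 1 (0.31) or 3 (0.37), with adjusted p-values from 0.0839 to 0.200 (limma). A second ERBB3 probe, ILMN_1737993, was below the detection threshold on all siControl arrays and above it on 2 of 3 siNR4A1 arrays. Its log2 values of 6.07, 6.04 and 6.29 in siControl and 6.41, 6.29 and 6.71 in siNR4A1 met at one end. The exact two-sided permutation p was 0.2. Its mean was at least 1.07-fold higher in siNR4A1. Such a bound sets the brighter group's mean against, per array, the lowest detected value or the dim probe's own value, whichever is higher. It compares group means without their spread, so it does not show a rise by itself. The third probe, ILMN_2397602, was undetected on every array.

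MET had 1 probe, ILMN_1715175, detected on all 6 arrays at 3.16 to 6.11 times the threshold. Signals of 348, 306 and 803 in siControl and 457, 554 and 594 in siNR4A1 became log2 values of 8.79, 8.65 and 8.96 against 8.75, 8.84 and 8.95. The groups covered nearly the same range, and the difference was 0.05 ± 0.12 (SE, n = 3 per group), with a 95% interval of -0.20 to 0.30 or 0.868 to 1.23 times the control level (limma, adjusted p = 0.840).

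**Figure D2:**
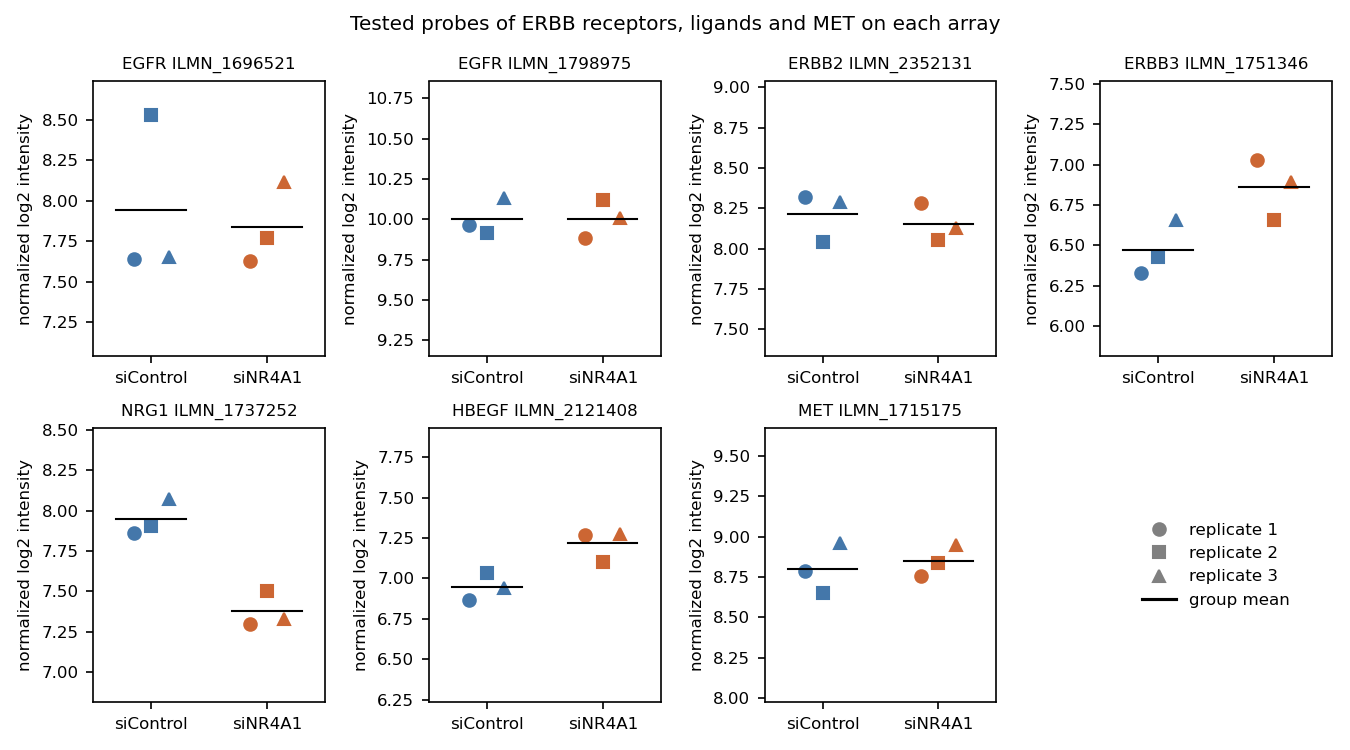
Normalized log2 intensity of the 7 tested member probes on each array, with the group mean as a line; each panel spans the same height on the log2 scale. The siNR4A1 arrays lie below all siControl arrays for NRG1 and above them for ERBB3 and HBEGF, and the groups overlap for EGFR, ERBB2 and MET.

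NRG1, the ligand of ERBB3, was the member that changed most. Its probe ILMN_1737252 had signals of 203, 199 and 441 in siControl and 179, 233 and 211 in siNR4A1, at least 1.68 times the detection threshold on every array. These raw signals overlapped between groups; normalization brought siControl to log2 values of 7.86, 7.90 and 8.07 and siNR4A1 to 7.30, 7.50 and 7.33, with every siNR4A1 array below every siControl array. NRG1 fell by 0.57 on the log2 scale (SE 0.11, 3 arrays per group), to 0.674 times the control level, with a 95% interval of 0.570 to 0.798 (limma, adjusted p = 0.00341). Among all tested probes 2.87% fell further.

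The other NRG1 probes gave little. ILMN_1657607 and ILMN_1731788 were undetected on all arrays, and ILMN_1811954 and ILMN_2298888 were each detected on 1 siControl array and on none of the siNR4A1 arrays. For ILMN_1811954 the log2 values were 6.30, 6.43 and 6.31 in siControl and 6.23, 6.21 and 6.12 in siNR4A1, again apart and lower after siNR4A1, with an exact two-sided permutation p of 0.1, the smallest that 3 against 3 arrays allow. Groups lay apart for 1 of the 14 member probes that were not tested, against 10.6% of all such probes. The fall of NRG1 therefore rests on a single probe, and which of the many NRG1 transcripts it reads is not given in the files.

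HBEGF, an EGFR and ERBB4 ligand anchored in the membrane until it is cut, had 1 probe, ILMN_2121408, detected on all 6 arrays at 1.20 to 1.64 times the threshold. Signals were 123, 128 and 201 in siControl and 175, 184 and 204 in siNR4A1, and log2 values 6.87, 7.04 and 6.94 against 7.27, 7.10 and 7.28. All siNR4A1 arrays were above all siControl arrays, by 0.27 ± 0.11 (SE, n = 3 per group) or 1.21-fold, with a 95% interval of 0.03 to 0.51. This did not pass (limma, adjusted p = 0.116), nor did it in any of 14 alternatives, where the difference ran from 0.18 to 0.36. Groups lay apart for 3 of the 7 tested member probes, those of NRG1, ERBB3 and HBEGF, and for 33.1% of all tested probes.

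The remaining EGFR ligands were at background. AREG had 1 probe, whose signals from 70.4 to 99.2 were under the threshold on all 6 arrays. EREG passed the threshold on siControl replicate 3 alone, at 1.17 times it, with signals of 94.8, 90.8 and 153 in siControl and 92.0, 121 and 111 in siNR4A1 (exact two-sided permutation p = 0.5). TGFA probe ILMN_2083946 was detected on 2 siControl arrays and no siNR4A1 array, with log2 values of 6.53, 6.07 and 6.43 against 6.01, 6.16 and 6.09; the groups overlapped, and the exact two-sided permutation p was 0.3. Its second probe was undetected. For these genes a difference was not detectable at this signal.

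**Figure D3:**
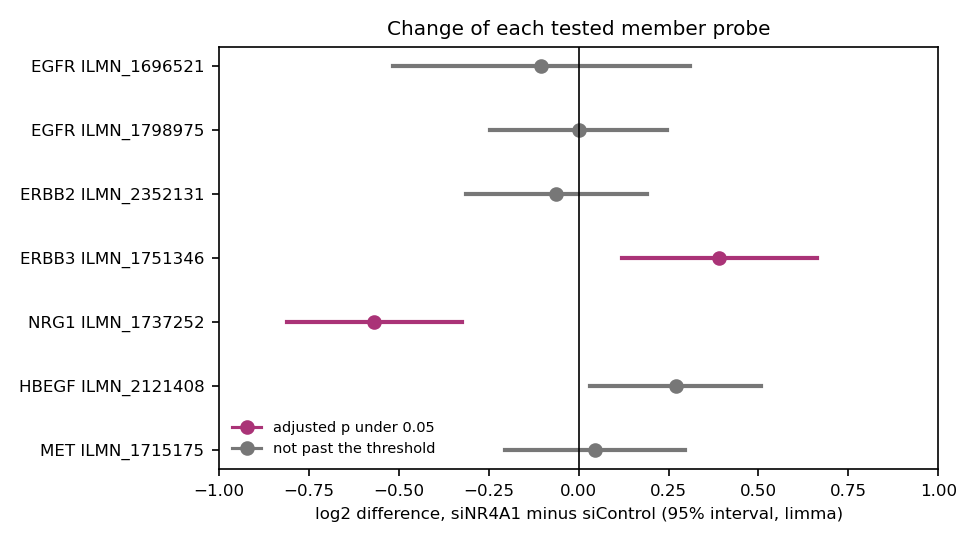
Log2 difference (siNR4A1 minus siControl) of each tested member probe with its 95% interval from limma, for 3 arrays per group. The intervals of NRG1, ERBB3 and HBEGF leave out 0, and only those of NRG1 and ERBB3 pass after adjustment over all 19066 probes.

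The promoters of EGFR, ERBB2, MET and HBEGF are shown, as these genes had a probe detected on all 6 arrays. NRG1 also had such a probe, but its promoter was left out by rule. The marked motif is the GC box that SP-family transcription factors bind. Each promoter is the stretch of 250 bases before a RefSeq transcription start of the gene (GRCh38.p14), for EGFR the more upstream of 2 entries. It need not be the main start, and other starts of these genes were not read. Sequences run 5′ to 3′ on the gene's strand, with GC boxes (GGGCGG on either strand, overlaps counted) in capitals. The ERBB2 window holds none, which says nothing of other ERBB2 starts.
EGFR, chr7:55018767-55019016, plus strand: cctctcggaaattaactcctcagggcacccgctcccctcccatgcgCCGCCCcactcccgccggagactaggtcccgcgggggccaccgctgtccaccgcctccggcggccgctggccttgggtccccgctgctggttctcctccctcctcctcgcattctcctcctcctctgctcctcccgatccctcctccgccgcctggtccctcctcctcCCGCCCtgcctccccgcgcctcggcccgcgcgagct
ERBB2, chr17:39687844-39688093, plus strand: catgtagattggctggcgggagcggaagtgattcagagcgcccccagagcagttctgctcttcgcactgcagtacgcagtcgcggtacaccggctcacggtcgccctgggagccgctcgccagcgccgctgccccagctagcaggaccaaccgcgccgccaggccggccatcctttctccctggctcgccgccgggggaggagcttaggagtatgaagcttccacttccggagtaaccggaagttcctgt
MET, chr7:116671946-116672195, plus strand: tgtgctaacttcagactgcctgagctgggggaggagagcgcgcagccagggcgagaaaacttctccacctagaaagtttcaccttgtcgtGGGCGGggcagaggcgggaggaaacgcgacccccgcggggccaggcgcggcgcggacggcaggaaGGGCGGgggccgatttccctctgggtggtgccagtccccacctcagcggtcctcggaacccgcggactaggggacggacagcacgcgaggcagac
HBEGF, chr5:140346604-140346853, minus strand: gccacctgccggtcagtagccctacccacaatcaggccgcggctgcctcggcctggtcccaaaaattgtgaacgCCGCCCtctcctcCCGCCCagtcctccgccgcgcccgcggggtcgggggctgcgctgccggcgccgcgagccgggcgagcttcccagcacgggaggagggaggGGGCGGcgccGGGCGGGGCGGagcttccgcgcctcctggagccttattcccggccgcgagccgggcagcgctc

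HBEGF held 5 GC boxes in this window, TGFA 3, EGFR and MET 2 each, AREG 1, and ERBB2 and EREG 0. A GC box was present in 42.6% of 35116 such windows of RefSeq, and 3 or more in 13.9%. The NBRE, the site that NR4A1 binds as a single molecule (AAAGGTCA on either strand), was in none of these 7 windows and in 1.05% of all windows. A match is a description of the letters, and no binding was measured here. ERBB3 and NRG1, the members that were called, were not among these windows, so neither motif was looked for in them.

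The rest of both pathways was read from 6 gene lists, 1 probe per gene (the brightest), in the same limma fit adjusted over 13760 genes, of which 19.4% were called, 10.8% higher and 8.66% lower. Of 93 listed genes 74 were tested, 9 rose, 10 fell and 55 did not pass, and the median log2 difference was 0.09 against 0.02 over all genes. In this fit NRG1 and ERBB3 had adjusted p-values of 0.00213 and 0.0371 (limma). All 19 calls were lost when arrays were scaled to equal medians instead of being quantile-normalized, although the differences kept their sign (PIK3CB -1.01, CD2AP -0.66, CCND1 1.16, SPRED1 0.99). With medians of detected probes equalized, 9 calls held, those of PLAU, RHBDF2, PIK3CB, CD2AP, TNK2, CCND1, SPRED1, DUSP5 and FOSL1. Lost under that scaling were NRG2 (0.27), STAT3 (-0.42), PIK3CA (-0.51), VAV2 (0.28), SOS1 (-0.49), STAM (0.55), SH3KBP1 (-0.30), SOCS5 (-0.42), EGR1 (0.51) and PHLDA1 (-0.33). Apart from SDC1 and GPC1, the listed genes named below that did not pass were chosen after their values were seen.

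**Figure D4:**
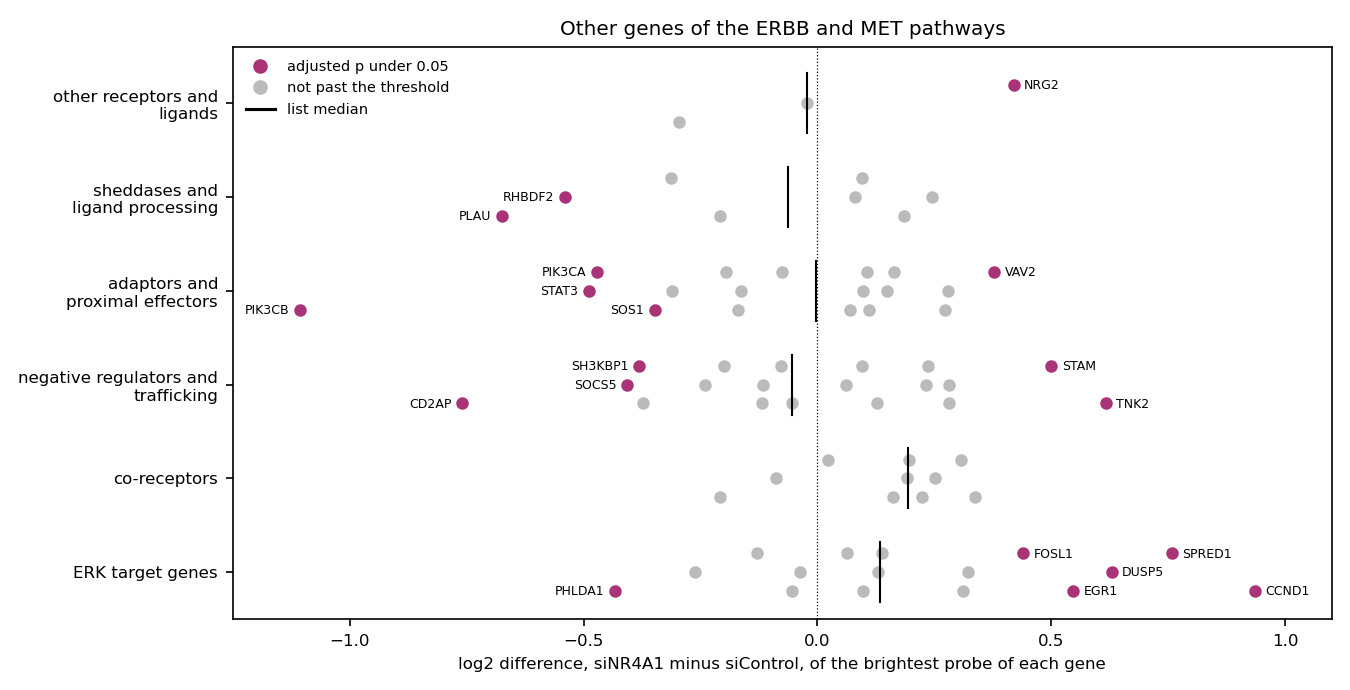
Log2 difference (siNR4A1 minus siControl) of the tested genes in 6 lists, each read by its brightest probe; purple points passed at a limma adjusted p under 0.05 over all genes, and black bars are list medians. PIK3CB lies furthest to the left, and CCND1 furthest to the right.

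Among other receptors and ligands of the families, 3 of 10 genes were tested. NRG2, a further neuregulin, was undetected on all siControl and detected on all siNR4A1 arrays, and its mean was at least 1.23-fold higher there. It entered the test only through the group where it is high, so its call, the 1 counted as rising in this list, supports nothing further; it was lost without siNR4A1 replicate 1 (0.38 on the log2 scale). NRG4 differed by -0.02, and MST1, the ligand of MET's closest relative, by -0.30; neither passed. ERBB4, EGF, BTC, EPGN, NRG3, HGF and MST1R did not reach the test, so no second reading of EGFR ligands or of the ligand of MET was available.

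Of the genes that cut or process ligands, 8 of 14 were tested, 0 rose and 2 fell. RHBDF2 encodes iRhom2, which carries the sheddase ADAM17 to the cell surface, and fell by 0.54 with an SE of 0.11 (limma, adjusted p = 0.00244); its 3 tested probes ranged from -0.54 to -0.35, and 2 of them passed. PLAU, the urokinase protease that can activate hepatocyte growth factor, fell by 0.67 with an SE of 0.12 (limma, adjusted p = 0.000764). The sheddases themselves did not pass, with ADAM17 at 0.10, ADAM10 at -0.21 and ADAM9 at -0.31.

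Adaptors and proximal effectors were all tested, 18 of 18, with 1 rising and 4 falling. The PI3K catalytic subunit PIK3CB fell by 1.11 with an SE of 0.11, or 2.15-fold (limma, adjusted p = 5.17e-06), and PIK3CA, the other widely expressed catalytic subunit, fell by 0.47. STAT3, a transcription factor that these receptors can activate, fell by 0.49, and 2 of its 3 tested probes passed. VAV2, which is phosphorylated by activated receptors, rose by 0.38, and SOS1, the RAS exchange factor, which lies outside the naming rule and was chosen after its value was seen, fell by 0.35. SOS1 was detected on 3 siControl arrays but on only 1 siNR4A1 array, so its level after siNR4A1 is mostly not above background. The link between receptor and SOS1, GRB2, differed by -0.31 ± 0.17 (SE) and did not pass, and its second probe differed by 0.09. Calls were lost for PIK3CA without siControl replicate 1 (-0.39) or siNR4A1 replicate 3 (-0.36), and for VAV2 without siNR4A1 replicate 1 (0.32) or 3 (0.37). That of SOS1 was lost with the authors' log2 values (-0.26), and without siControl replicate 1 (-0.31) or 3 (-0.30) or any siNR4A1 replicate (-0.33, -0.39 and -0.32).

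Negative regulators and trafficking genes went both ways: of 19 tested, 2 rose and 3 fell. CD2AP, which links receptors to CBL and endocytosis, fell by 0.76 with an SE of 0.12 (limma, adjusted p = 0.000436), and its relative SH3KBP1 fell by 0.38. TNK2, a kinase that binds EGFR and clathrin, rose by 0.62 ± 0.11 (SE; limma, adjusted p = 0.00106), although its second tested probe differed by -0.10. STAM, a part of the endosomal sorting machinery, rose by 0.50. SOCS5, chosen after its value was seen, fell by 0.41, although its second tested probe differed by 0.06. The feedback inhibitor ERRFI1 at -0.20 and the ubiquitin ligase CBL at -0.05 did not pass. Nor did the ERBB3 ligase RNF41, detected on all siControl and no siNR4A1 arrays, with a mean at least 1.17-fold lower in siNR4A1. It too entered the test only through the group where it is high. The call of STAM was lost without siControl replicate 2 (0.35), that of SH3KBP1 without siControl replicate 3 (-0.32) or siNR4A1 replicate 1 (-0.34) or 3 (-0.37), and that of SOCS5 without siControl replicate 1 (-0.44) or 2 (-0.31) or siNR4A1 replicate 1 (-0.39) or 3 (-0.35).

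Of 10 tested co-receptors 0 passed in limma, and 3 had an unadjusted p under 0.05, as did 4426 of all 13760 genes. Past the adjusted threshold, the count was 1 with the authors' log2 values, with probes detected on all 6 arrays and without siControl replicate 1. It was 2 without siNR4A1 replicate 1. The median difference of the list was 0.19. The nearest to the threshold were the syndecan SDC1, at 0.34 ± 0.12 (SE; limma, adjusted p = 0.0560), which passed in 4 of 15 alternatives and had a second probe at -0.19, and the glypican GPC1 at 0.31 (limma, adjusted p = 0.0995). CD44, which presents ligands to MET, differed by 0.02 with its brightest probe and by as much as -0.38 among its 3, and the HBEGF partner CD9 by 0.20.

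Of 16 tested ERK target genes, 5 rose and 1 fell, with a median of 0.13. Cyclin D1 (CCND1) rose by 0.93 with an SE of 0.13 (limma, adjusted p = 9.98e-05), the RAS pathway inhibitor SPRED1 by 0.76, the ERK phosphatase DUSP5 by 0.63, EGR1 by 0.55 and FOSL1 by 0.44. PHLDA1 fell by 0.43; it and FOSL1 were chosen after their values were seen. Other ERK-dependent genes did not pass. SPRY4 at 0.31 and MCL1 at 0.32 had groups that lay apart (limma, adjusted p = 0.0614 and 0.0717). MYC, at -0.26, had groups apart in the other direction (limma, adjusted p = 0.0952). Groups lay apart for 33.1% of all tested probes. ETV4 differed by 0.14 with its brightest probe and by 0.47 with a second that passed. Nearer 0 were DUSP6 at 0.13 (second probe -0.28), SPRY2 at -0.04 and ETV5 at -0.06. The call of FOSL1 was lost without siControl replicate 1 (0.34) or siNR4A1 replicate 3 (0.41), and that of PHLDA1 without siNR4A1 replicate 2 (-0.40).

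The genes closest in pattern to the 2 members that passed were sought by the root-mean-square difference between log2 profiles over the 6 arrays, each centred on its mean. For NRG1 they were TRIM56, at 0.039, and RHBDF2, at 0.050, which had log2 values of 9.31, 9.35 and 9.52 in siControl and 8.81, 8.88 and 8.86 in siNR4A1. For ERBB3 they were CLPP, at 0.044, and HSPA13, at 0.047. With 6 arrays in 2 groups many genes share such a profile, and the measure is a description.

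**Figure D5:**
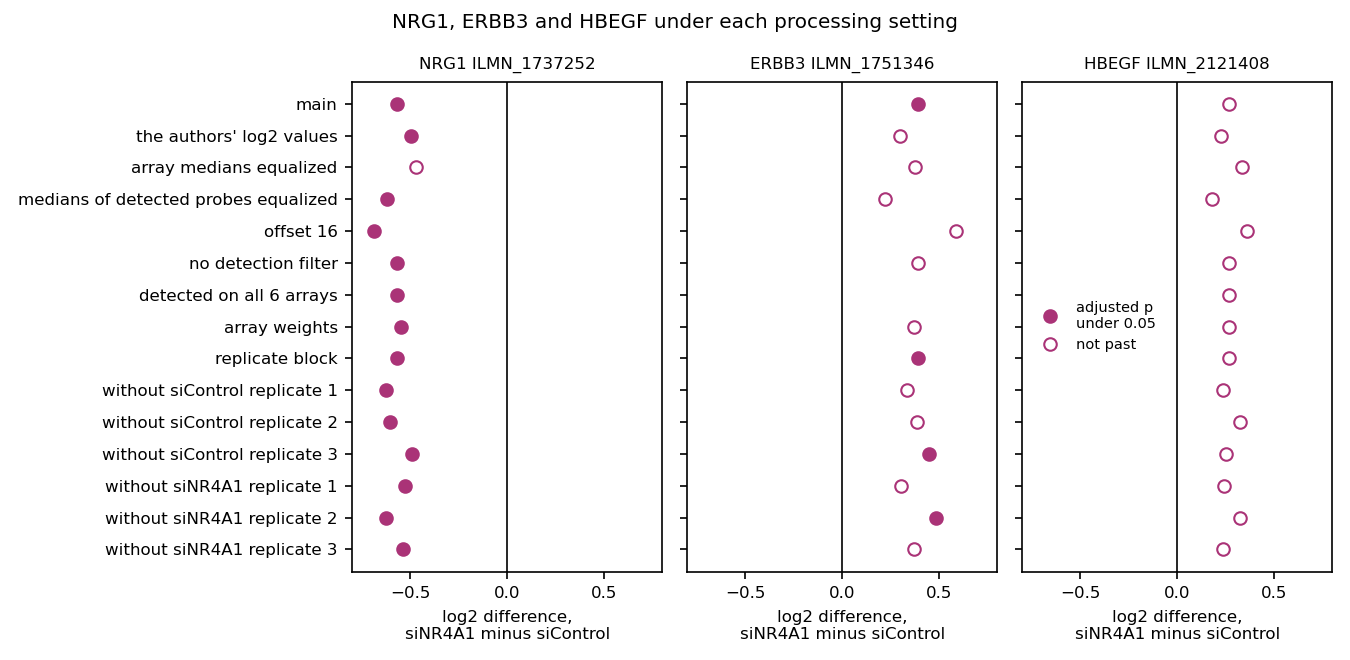
Log2 difference (siNR4A1 minus siControl) of the NRG1, ERBB3 and HBEGF probes under the main processing and each alternative; filled points passed at a limma adjusted p under 0.05. NRG1 stays between -0.69 and -0.47 and is filled in 13 of 14 alternatives, ERBB3 in 3 of 13, and HBEGF in none.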

How the data were processed

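Per the submitters' processing notes, BeadStudio was used, with no version given; chip type and genome build are not given in the sources used here. Linear intensities, which the authors deposited as non-normalized, came without detection p-values, and the authors' deposited log2 table equals quantile normalization of the log2 signals within 0.005. Intensities were corrected with normexp (offset 50), quantile-normalized and put on the log2 scale, which understates changes of dim genes. Background for the detection threshold was estimated per array from the peak of the log2 signal density (bandwidth 0.03), its spread from values under that peak. The normexp correction took the place of the neqc step, which needs detection p-values or control probes. limma 3.58.1 (lmFit, eBayes; R 4.3.3) tested siNR4A1 against siControl, with no covariate, a threshold of 0.05 and Benjamini-Hochberg adjustment over all probes, or over all genes for the lists. Gene names were updated through RefSeq symbols (GRCh38.p14, names only). Named were all members, NR4A1, up to 4 called genes per list by smallest p (2 where none passed), and the 2 nearest profiles of each called member. Members and lists were chosen with earlier results of these data known. The fit was tested on simulated data. Same-numbered replicates deviated together with r from 0.038 to 0.18, and different-numbered ones with r from -0.13 to 0.042. The values lean towards pairing by number but cannot decide it. Deviations were taken from each group's own mean, so these r values depend on one another. The lowest same-numbered r also lay under the highest different-numbered one. No pairing is labelled, and the main fit was unpaired. A fit blocked on replicate number is given below.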

Additional observations from a re-analysis of the deposited data

How the results depend on the processing

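The scaling between arrays moved the calls most among the alternatives run. With array medians equalized, the count of called probes went from 2976 to 0 in limma (1489 at an unadjusted p under 0.05), that of member probes from 2 to 0 (0 unadjusted), that of genes from 2674 to 0 (1093 unadjusted) and that of listed genes from 19 to 0 (10 unadjusted). NRG1 then stood at -0.47 and ERBB3 at 0.37 (adjusted p = 0.708 and 0.703, limma), with the median of all probes moved to 0.11; relative to it they stood at -0.58 and 0.27. EGFR ILMN_1798975 and MET stood at 0.23 each, or 0.13 and 0.12 relative to it. With medians of detected probes equalized, 1142 probes, 1 member probe, 1255 genes and 9 listed genes passed, and ERBB3 was at 0.22. The ERBB3 call was also lost with the authors' log2 values (0.30), an offset of 16 (0.59), no detection filter (0.39) and array weights (0.37), each leaving 1 member probe, NRG1; with probes detected on all 6 arrays, 1 passed and that of ERBB3 was not tested. Leaving out each array in turn, called probes ranged from 1506 to 3423, with 1941, 1886 and 1506 without siNR4A1 replicates 1, 2 and 3; called genes from 1496 to 2981, with 1756 and 1496 without siNR4A1 replicates 2 and 3; called member probes from 1 to 2; listed genes from 13 to 19; ERBB3 from 0.31 to 0.48 and NRG1 from -0.63 to -0.49. Averaging the probes of each gene, the calls of TNK2 (0.26) and SOCS5 (-0.17) were lost. The replicate block changed no member's call, with 2 member probes, 3447 probes and an adjusted p of 0.0380 for ERBB3 (limma). Of 6 samples, 5 correlated best with their own number, though these correlations depend on one another. Dim signal limits ERBB3, HBEGF, AREG, EREG and TGFA, and the cause of the lost calls was not tested.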
